A study of Mus musculus with 7 samples.

Results

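The insulin-like growth factor axis was followed through 10 genes: the ligand Igf1, the receptors Igf1r and Igf2r, the binding proteins Igfbp2, Igfbp3, Igfbp4, Igfbp5 and Igfbp7, and the receptor substrates Irs1 and Irs2. They were chosen by name as genes of the axis, with earlier results of these data known, and are 10 of the 50686 genes quantified in each library. The libraries were made from microglia of C57BL/6 male mice that had all undergone transient middle cerebral artery occlusion, 4 of them young (3 to 4 months; animals 14C, 18C, 23C and 29C) and 3 old (21 to 22 months; animals 2posI, 3posI and 4posI). Cells were sorted 4 days after the occlusion as CD11b+, CD45low and Bodipy+, Bodipy being a dye of the neutral lipids in lipid droplets, and each library came from 1 mouse. Neither age had a Bodipy-negative or uninjured counterpart among the libraries analysed here, so the only contrast was old against young.

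IGF1 is a secreted growth factor that binds the receptor tyrosine kinase IGF1R, which passes the signal through the docking proteins IRS1 and IRS2 to the PI3K-AKT and Ras-MAPK cascades. IGF2R, also known as the cation-independent mannose 6-phosphate receptor, has no kinase: it clears IGF2 and carries lysosomal enzymes to lysosomes. The binding proteins hold the ligand outside cells and can restrain or prolong its action. Microglia and macrophages are a local source of IGF1 in the injured brain.

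Total expected counts were 36574083 to 53002386 per library. Below, CPM is a count scaled to library size with TMM factors, which compares 1 gene between libraries, and TPM corrects for transcript length, which compares genes with each other. Summed CPM of the 10 microglial markers was 21750 to 32410 in young mice and 25300, 11180 and 23480 in old mice 2posI, 3posI and 4posI. The defining markers Tmem119 (850 to 2269 CPM) and P2ry12 (341 to 1767 CPM) were present in every library. A pair of libraries stood apart. In old mouse 3posI the 7 markers of infiltrating monocytes summed to 2788 CPM, against 181 to 481 CPM in young mice and 448 and 211 CPM in the other old mice, and in young mouse 23C the 7 fibroblast markers summed to 281 CPM, against 31.8 to 63.5 CPM in the other young mice and 5.51 to 38.7 CPM in old mice. Fold changes that rest on either are given with and without it, as are some of the ratios and pattern matches. Annotated rRNA genes, those of the mitochondrial genome included, took 4.14 to 4.99% of expected counts in young and 2.21 to 3.37% in old mice, without overlap. The part of this in the age differences was not tested.

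Promoters of 3 members are shown, because Igf1 and Igf2r were the members whose CPM did not overlap between ages, in opposite directions, and Irs2 shared its highest library with Igf2r. Each is the 250 bases before the RefSeq start on GRCm38.p6, written along the gene's strand, with CpG dinucleotides in capitals. The Igf1 window is chr10:87860861-87861110 (+), the Igf2r window chr17:12769707-12769956 (-) and the Irs2 window chr8:11008930-11009179 (-). The Igf1 window lies inside the annotated gene, which begins at chr10:87858265, and so precedes a start within it. The windows of Igf2r and Irs2 lie outside their annotated genes. The CpG count of Igf1 is that of this window only.
Igf1: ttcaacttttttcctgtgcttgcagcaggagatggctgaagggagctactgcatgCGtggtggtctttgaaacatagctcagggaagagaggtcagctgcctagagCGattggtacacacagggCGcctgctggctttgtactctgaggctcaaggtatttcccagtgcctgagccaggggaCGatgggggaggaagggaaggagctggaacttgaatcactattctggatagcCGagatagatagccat
Igf2r: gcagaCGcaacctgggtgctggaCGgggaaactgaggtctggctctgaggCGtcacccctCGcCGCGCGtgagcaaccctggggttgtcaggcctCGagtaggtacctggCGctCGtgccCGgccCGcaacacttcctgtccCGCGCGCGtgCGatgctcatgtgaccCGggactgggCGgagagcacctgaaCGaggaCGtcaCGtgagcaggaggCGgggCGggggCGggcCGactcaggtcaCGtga
Irs2: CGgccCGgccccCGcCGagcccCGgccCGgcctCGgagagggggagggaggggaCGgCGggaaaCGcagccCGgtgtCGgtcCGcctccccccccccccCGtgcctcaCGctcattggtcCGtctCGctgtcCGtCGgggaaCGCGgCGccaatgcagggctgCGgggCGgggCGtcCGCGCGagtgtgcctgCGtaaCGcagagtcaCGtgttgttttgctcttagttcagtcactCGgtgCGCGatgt
The Igf1 window held 5 CpG, close to the median of 6 over the 32851 promoters of the same length, whereas that of Igf2r held 27 and that of Irs2 34. More CpG than in 91.4% of promoters was found for Igf2r and more than in 96.5% for Irs2. The E-box CACGTG occurred in the Igf2r window with its first base 48 and 7 bases before the start, and in the Irs2 window 44 bases before it. Promoters of 4 of the 10 members held this E-box, which 6.02% of all promoters hold. Searched on both strands, the GC box GGGCGG was in 6 of 10 members and 32.7% of all promoters, and CCAAT in 2 of 10 members (Igf1 and Irs2) and 33.8% of all. The FOXO core TGTTTAC, held by 3.17% of all promoters, was found in 0 of the 10 members. Igfbp2 was searched in windows before separate starts. A member was counted where any of its windows held the letters, whereas the percentages are per promoter. These are matches of letters, and no binding was measured.

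In TPM, Igf1 stood above the other members in every library. Its TPM was 145, 143, 316 and 140 in young mice 14C, 18C, 23C and 29C, and 65.7, 31.3 and 38.9 in old mice 2posI, 3posI and 4posI. In both ages the order went on with Igfbp7 (42.5 ± 27.0 TPM in young mice, SD, n = 4, and 13.03 ± 9.16 in old mice, n = 3) and Igfbp4 (10.8 ± 4.14 and 10.3 ± 1.18). Igf1r lay at 4.38 ± 0.801 and 4.91 ± 0.936 TPM, Igf2r at 4.14 ± 1.06 and 8.02 ± 2.55, and Irs2 at 3.26 ± 1.15 and 6.09 ± 3.29. Igfbp3 and Igfbp5 had mean TPM of 0.477 to 1.27 in either age, and Irs1, at most 0.09 TPM in any library, came last. Among neighbours in the young order, the ranges separated between Igf1 and Igfbp7 and between Igfbp3 and Irs1. In old mice they separated between Igf1 and Igfbp7, Igf1r and Igfbp3, and Igfbp5 and Irs1, and every other neighbouring pair overlapped.

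**Figure D1:**
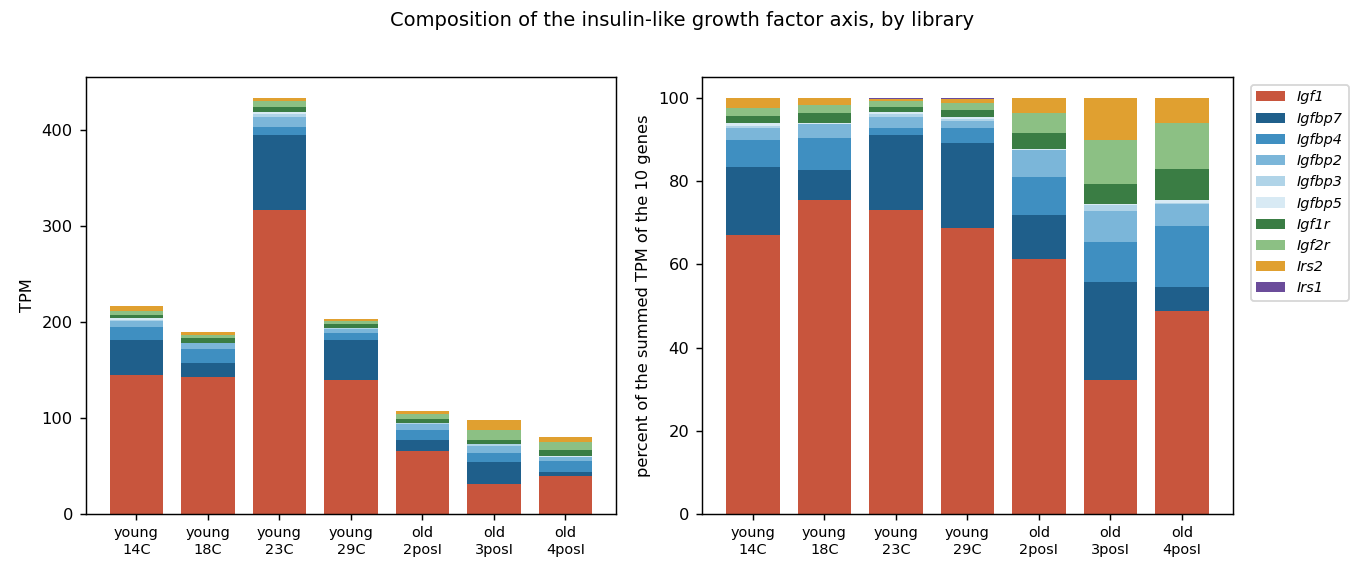
Stacked TPM of the 10 members in each library (left) and as percent of their sum (right). The sum was 189 to 433 TPM in young and 79.7 to 107 TPM in old mice, and Igf1 made up 67.0 to 75.5% of it in young and 32.2 to 61.2% in old mice.

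With edgeR's quasi-likelihood test and Benjamini-Hochberg adjustment over the 17559 genes tested, 0 of the 10 members differed between ages at an adjusted p under 0.05, a threshold that 0.803% of all genes tested passed. At an unadjusted p under 0.05 there were 5 of 10 members, against 18.9% of all genes tested. These were Igf1, Igfbp7 and Irs1, which were lower in old mice (3 members, against 8.79% of all genes), and Igf2r and Irs2, which were higher (2 members, against 10.1%). In 2 of 10 members the CPM of the ages did not overlap, against 17.7% of all genes, a share near this background. Igf1 was the member with old below young (9.07% of all genes) and Igf2r the one with old above young (8.67%). All 10 members passed the filter on low counts. Irs1 passed only through young mice 14C, 23C and 29C (17.2 to 29.2 expected counts, at most 1.43 in old mice). Its lower value in old mice was thus nearly set by the filter, and its place in these counts is no support. The median log2 fold change of the 10 members, Irs1 included, was -0.51, with 4 higher and 6 lower in old mice. Over all genes tested it was -0.014, and 48.8% were higher. limma-voom called 1 member (Igf1) and DESeq2 called 2 (Igf1 and Igf2r), where they called 0.814% and 7.97% of all genes.

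**Figure D2:**
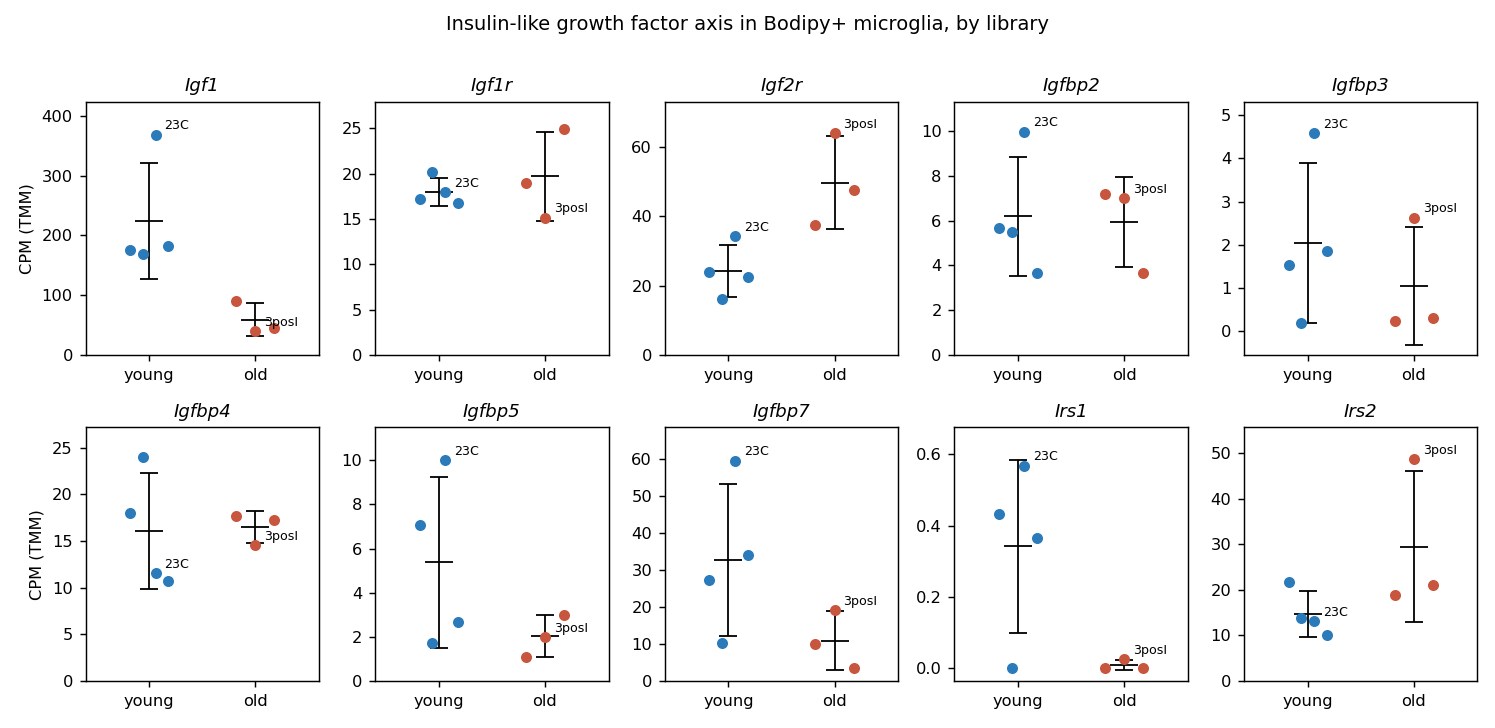
CPM of each member in young (blue, n = 4) and old (red, n = 3) mice, with 1 point per library, the mean as a bar and the SD as whiskers on linear axes that differ between panels. Igf1 lies lower and Igf2r higher in all old mice than in any young mouse, and libraries 23C and 3posI are named.

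Igf1 (ENSMUSG00000020053, chr10:87858265-87937042 on the plus strand of GRCm38) was measured at 176, 168, 368 and 183 CPM in young mice 14C, 18C, 23C and 29C, and at 90.6, 40.1 and 46.0 CPM in old mice 2posI, 3posI and 4posI. All old mice lay below all young mice, with 23C far above the other young mice. The means were 224 ± 96.5 (SD, n = 4) in young and 58.9 ± 27.6 (n = 3) in old mice, a level 3.80-fold higher in young mice. On the log2 scale old minus young was -1.93 ± 0.39 (SE), with an adjusted p of 0.0618 in edgeR. The same change had an adjusted p of 0.0477 in limma-voom, 2.69e-05 in DESeq2 and 0.0200 in edgeR without a filter on low counts, which called 1.03% of its genes. Over the other settings that kept all libraries, those 3 included, its log2 fold change was -1.99 to -1.92. Without 23C it was -1.58, and without both 23C and 3posI it was -1.36 ± 0.27 (SE) with an adjusted p of 0.0648 in edgeR. In these bulk samples fewer cells that express a gene and less RNA of it per cell cannot be told apart. Summed microglial markers of old mice 2posI and 4posI (25300 and 23480 CPM) were within the young range, and those of 3posI (11180 CPM) were below it. A scaling to 1000 CPM of those markers was chosen after the values were seen. Igf1 was then 5.19 to 16.9 in young mice and 3.58, 3.59 and 1.96 in old mice 2posI, 3posI and 4posI, without overlap. These values do not tell cell number from RNA per cell, and the part of either was not tested. The antisense gene Igf1os overlaps Igf1 and the libraries are non-stranded, but it held at most 43 expected counts beside 1568 to 18778 for Igf1.

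Igf1r (ENSMUSG00000005533, chr7:67952827-68233668, plus strand), the signalling receptor of IGF1, was among the steadiest members. Its CPM was 17.2, 20.2, 18.0 and 16.8 in young mice 14C, 18C, 23C and 29C and 19.0, 15.2 and 24.9 in old mice 2posI, 3posI and 4posI. The old values lay on both sides of the young range. Old and young differed by a log2 fold change of 0.13 ± 0.18 (SE; edgeR adjusted p = 0.738), and without 4posI it turned to -0.079. RSEM's effective length of Igf1r varied 1.56-fold between libraries, more than that of any other member, so its TPM and CPM differ in order between libraries.

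Igf2r (chr17:12682406-12769664, minus strand) was at 23.8, 16.1, 34.2 and 22.4 CPM in young mice 14C, 18C, 23C and 29C and at 37.5, 64.0 and 47.5 CPM in old mice 2posI, 3posI and 4posI. The lowest old mouse was just above the highest young mouse. The mean was 24.1 ± 7.49 (SD, n = 4) in young and 49.6 ± 13.4 (n = 3) in old mice, and the log2 fold change was 1.04 ± 0.26 (SE), 2.06-fold, with an adjusted p of 0.0992 in edgeR and 0.00876 in DESeq2. In TPM the ages overlapped, since 23C (5.61 TPM) lay above 2posI (5.19 TPM). Scaled to 1000 CPM of summed microglial markers, as for Igf1, they overlapped too. Igf2r was then 0.497 to 1.57 in young mice and 1.48, 5.72 and 2.02 in old mice 2posI, 3posI and 4posI. Without 3posI, where Igf2r was highest and the monocyte markers too, the log2 fold change was 0.82, and without both 3posI and 23C it was 1.03 ± 0.20 (SE). The antisense transcript Airn overlaps Igf2r and held at most 50 expected counts.

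The binding proteins did not separate the ages. Igfbp7, a secreted protein of low affinity for IGF1 that is abundant in vessel walls, was at 27.3, 10.2, 59.6 and 34.1 CPM in young mice 14C, 18C, 23C and 29C and at 10.1, 19.2 and 3.52 CPM in old mice 2posI, 3posI and 4posI. The young mouse 18C lay among the old mice and 23C above all others. Old minus young on the log2 scale came to -1.59 ± 0.66 (SE; edgeR adjusted p = 0.240), to -1.13 without 23C and to -2.28 without 3posI. Igfbp7 overlaps Polr2b on the other strand (1534 to 2353 expected counts), its counts were fractional in all 7 libraries, and in non-stranded libraries the division of reads between them is uncertain.

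Igfbp5 was at 7.08, 1.72, 10.0 and 2.69 CPM in young mice 14C, 18C, 23C and 29C and at 1.10, 1.99 and 3.00 CPM in old mice 2posI, 3posI and 4posI. A pair of young mice was above every old mouse and the other pair was among them (log2 fold change -1.40 ± 0.63 SE, adjusted p = 0.274, edgeR, and -0.91 without 23C). Igfbp3, the main carrier of IGF1 in blood, was at 1.54, 0.201, 4.59 and 1.85 CPM in young mice 14C, 18C, 23C and 29C and at 0.238, 2.63 and 0.302 CPM in old mice 2posI, 3posI and 4posI. Each age held libraries near 0.2 CPM and libraries above 2 CPM (log2 fold change -0.95 ± 1.06 SE, adjusted p = 0.663, edgeR). It was -0.18 without 23C and -2.90 without 3posI, so that each of these libraries moved its size by over 1.5 times.

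Igfbp4 and Igfbp2 had log2 fold changes smaller than their errors. Igfbp4 was at 10.7 to 24.01 CPM in young and 14.6 to 17.7 CPM in old mice (0.04 ± 0.28 SE, adjusted p = 0.956, edgeR), the old mice lying within the young range. Igfbp2, which neighbours Igfbp5 on chromosome 1 on the opposite strand, was at 3.66 to 9.96 CPM in young and 3.65 to 7.18 CPM in old mice (-0.06 ± 0.37 SE, adjusted p = 0.947, edgeR). The direction of both turned with single libraries left out.

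**Figure D3:**
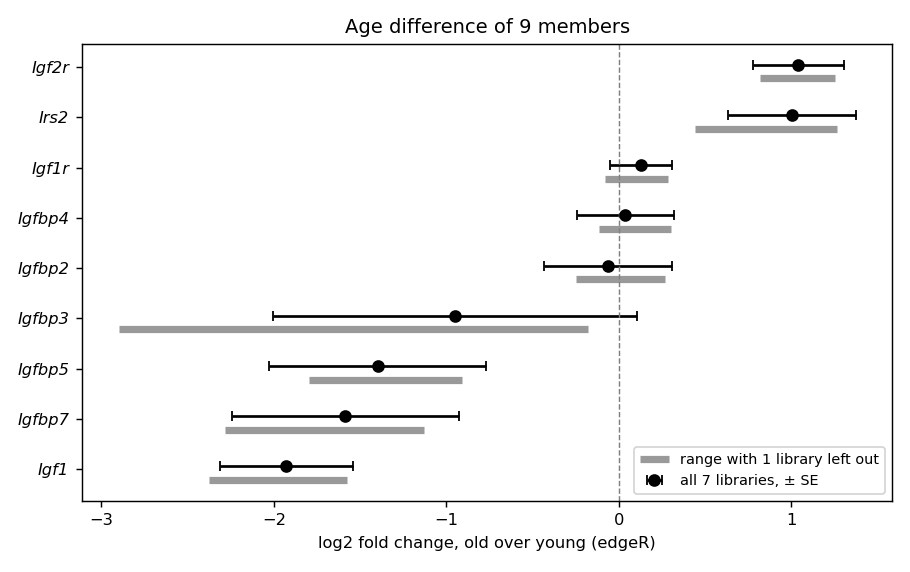
Log2 fold change of old over young for 9 members (points, ± SE, edgeR with all 7 libraries) and the range over the 7 fits with 1 library left out (grey bars). Igf1, Igfbp7, Igfbp5 and Igfbp3 stay below 0 and Igf2r and Irs2 above 0, while the bars of Igf1r, Igfbp4 and Igfbp2 cross it, and Irs1 is left out for its low counts.

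The receptor substrates differed in level. Irs2, a docking protein of the insulin and IGF1 receptors, was at 21.8, 13.7, 13.1 and 10.1 CPM in young mice 14C, 18C, 23C and 29C and at 18.8, 48.6 and 21.0 CPM in old mice 2posI, 3posI and 4posI. Old mouse 3posI stood far above every other library, and the other old mice lay within the young range. With all libraries Irs2 was 2.01-fold higher in old mice (log2 1.006 ± 0.37 SE; edgeR adjusted p = 0.195), and without 3posI the log2 value was 0.44. The monocyte markers, of which 7 of 7 were higher and 0 were called, moved with it in 3posI, and their part in the result was not tested. Irs1 had 19.8, 0, 29.2 and 17.2 expected counts in young mice 14C, 18C, 23C and 29C and 0, 1.43 and 0 in old mice 2posI, 3posI and 4posI. Young mouse 18C, at 0, lay with the old mice. Since the old libraries were at or under 3 counts, no fold is given (unadjusted p = 0.0145, adjusted p = 0.164, edgeR). Reads of Irs1 could also be divided with the overlapping gene Gm9747 on the other strand, which held at most 19.8 expected counts.

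In 23C, 6 of the 10 members had their highest CPM: Igf1, Igfbp2, Igfbp3, Igfbp5, Igfbp7 and Irs1. The fibroblast markers were highest there too. All 7 of these markers were lower in old mice and 0 were called, with sums of 63.5, 31.8, 281 and 47.5 CPM in young mice 14C, 18C, 23C and 29C and 5.51, 38.7 and 6.91 CPM in old mice 2posI, 3posI and 4posI. Igfbp3 and Igfbp7 shared with them the high value of 23C and, among old mice, that of 3posI. The part of fibroblasts in these results was not tested. Endothelial markers summed to 62.5 to 93.1 CPM in old and 78.1 to 146 CPM in young mice, with overlap. Of these 10 markers 8 were lower in old mice, 1 of them called (Slco1a4, log2 fold change -1.66, adjusted p = 0.0280, edgeR), and Pecam1 and Ly6c1 were also below the young range in all old mice without being called. They moved with Igfbp7 in direction, and their part in its values was not tested. Of the 8 mural markers 6 were higher in old mice and 0 were called, with sums of 12.9 to 40.3 CPM in old and 8.41 to 37.4 CPM in young mice. Without 23C, Igf1 had a log2 fold change of -1.58 ± 0.30 (SE) and an adjusted p of 0.0909 in edgeR, short of the threshold as with all libraries.

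**Figure D4:**
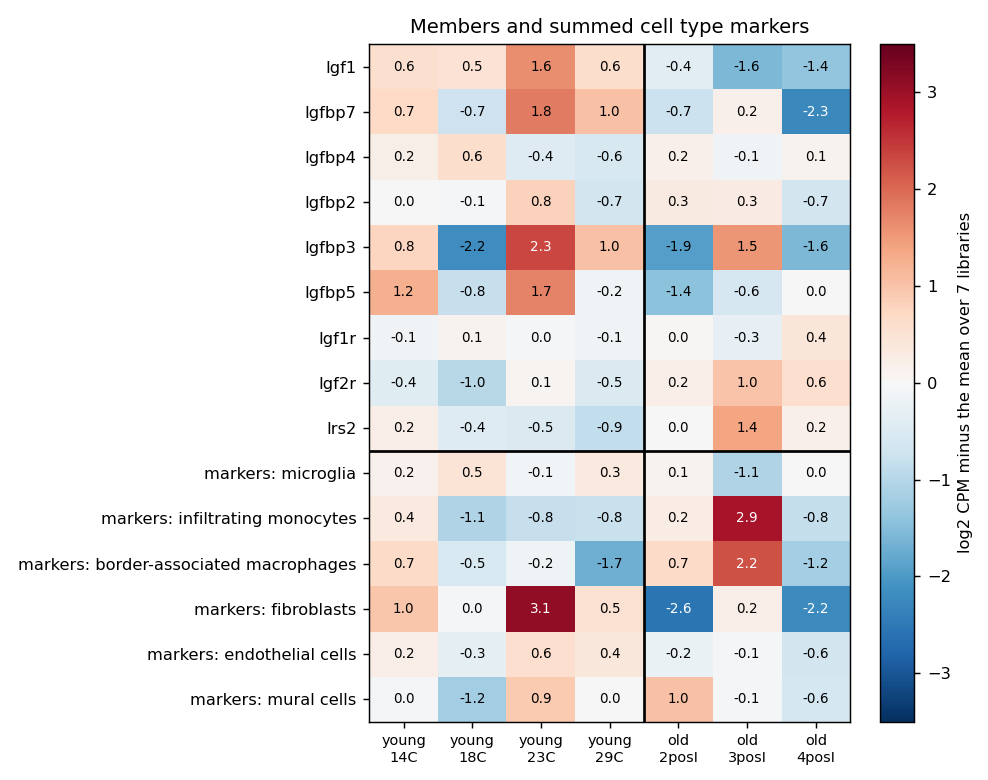
Log2 CPM of 9 members and log2 summed CPM of 6 marker lists, each minus its mean over the 7 libraries, with libraries in columns. Young mouse 23C is high for Igf1, Igfbp7, Igfbp3, Igfbp5 and fibroblast markers, and old mouse 3posI is high for Igf2r, Irs2 and markers of monocytes and border-associated macrophages and low for Igf1 and microglial markers.

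Ratios within a library need no scaling between libraries. The 5 ratios were taken from TPM with a pseudocount of 0.1 and compared by a two-sided exact permutation test over the 35 ways to assign 3 of the 7 libraries to old age, in which 0.0286 is the smallest p, with Benjamini-Hochberg adjustment over the 5. Igf1 to Igf1r was 37.4, 31.1, 56.9 and 36.1 in young mice 14C, 18C, 23C and 29C and 15.6, 6.60 and 6.44 in old mice 2posI, 3posI and 4posI. The difference was -2.17 on the log2 scale (exact permutation p = 0.0286, adjusted 0.0357), with old mice below young mice in all libraries. Igf1 to the summed binding proteins was 2.47, 4.04, 3.08 and 2.57 in the young mice and 2.29, 0.759 and 1.81 in the old mice, in the same order. Its log2 difference of -1.03 (exact permutation p = 0.0286, adjusted 0.0357) was -0.55 without 3posI, the only library with less Igf1 than binding protein RNA. Igfbp4 to Igf1 was 2.03 higher in old mice on the log2 scale, and Igf2r to Igf1r 0.75 higher (exact permutation p = 0.0286 and adjusted 0.0357 for each). Without 3posI, the difference for Igf2r to Igf1r was 0.53. Igf2r to Igf1r was 0.757 to 1.11 in young mice and 1.25, 2.15 and 1.46 in old mice 2posI, 3posI and 4posI, so that Igf2r exceeded Igf1r in every old mouse. Irs2 to Irs1 did not pass (log2 difference 1.34, exact permutation p = 0.0571, adjusted 0.0571). From CPM in place of TPM, 0 of the 5 ratios passed the adjustment, each at 0.0571. The adjusted 0.0357 rests on several ratios sharing the smallest p. In addition, 3 of the 5 share Igf1, and all were chosen with earlier results of these data known. The ratios with Igf1 thus restate its lower level in old mice and are not separate support for it.

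Genes around the members came from a list of 66, of which 55 were tested and 2 were called, both higher in old mice, against 0.803% of all genes. Of the 55, 33 were higher and 22 lower in old mice, with a median log2 fold change of 0.12, and 13 had an unadjusted p under 0.05, a share near the 18.9% of all genes tested. Of these, 10 were higher (10.1% of all genes) and 3 lower (8.79%). In the PI3K-AKT arm 15 of 15 genes were tested, 9 of them higher and 6 lower in old mice, and both called genes belong to it. An unadjusted p under 0.05 in edgeR was reached by 8 of the 15, against 18.9% of all genes. Of these 8, 6 were higher (10.1% of all genes) and 2 lower (8.79%). Pik3ca, the catalytic subunit alpha of PI3K, was at 14.9, 15.3, 16.3 and 15.7 CPM in young mice 14C, 18C, 23C and 29C and at 27.2, 28.1 and 24.8 CPM in old mice 2posI, 3posI and 4posI. The values within each age lay close together and the ages were well separated (log2 fold change 0.78 ± 0.12 SE, adjusted p = 0.0308, edgeR). Its call was lost without any 1 library other than 3posI and on log2(TPM + 1), with adjusted p up to 0.138, while its log2 fold change stayed at 0.74 or more. Pik3cb, the catalytic subunit beta, named after its values were seen, had a log2 fold change of 0.81 ± 0.15 (SE) and an adjusted p of 0.0524 in edgeR. Its CPM too was higher in all old mice than in any young mouse, at means of 15.9 in young and 27.8 in old mice. In TPM its means lay closer together, at 6.20 in young and 7.30 in old mice.

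**Figure D5:**
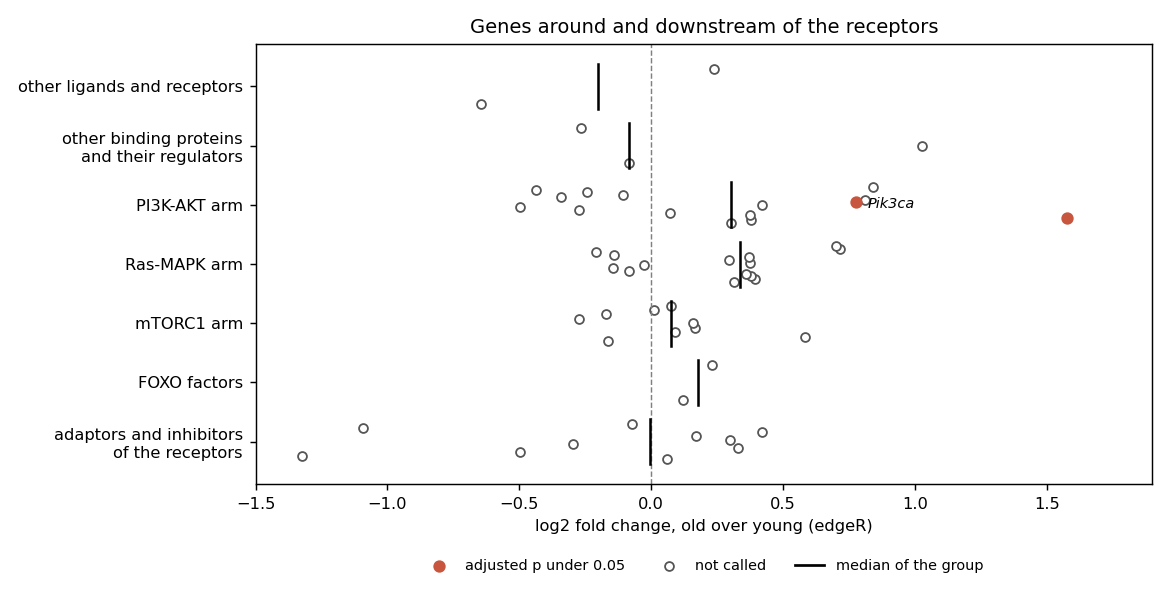
Log2 fold change of old over young for the 55 tested genes of the list, 1 point per gene, with the median of each group as a bar. The filled points passed the adjusted threshold, Pik3ca among them, and the medians run from -0.20 for other ligands and receptors to 0.34 for the Ras-MAPK arm.

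In the Ras-MAPK arm 0 of 14 were called. Its exchange factors Sos2 (8.63 ± 0.537 CPM in young and 14.0 ± 1.66 in old mice, adjusted p = 0.0728, edgeR) and Sos1 (8.03 ± 1.39 and 13.2 ± 0.437 CPM, adjusted p = 0.0948) did not overlap between ages. In the mTORC1 arm 0 of 9 were called. Eif4ebp1, a repressor of translation, was at 39.5 ± 5.05 CPM in young and 59.1 ± 8.66 in old mice (adjusted p = 0.101, edgeR), and Rps6kb2, a kinase of ribosomal protein S6, at 22.8 ± 0.777 and 18.9 ± 1.87 CPM (adjusted p = 0.274). Foxo3 and Foxo1, factors held out of the nucleus by AKT, had log2 fold changes of 0.23 ± 0.15 and 0.12 ± 0.18 (SE; adjusted p = 0.453 and 0.749, edgeR).
Among the adaptors and inhibitors 0 of 10 were called. Socs3, an inhibitor of cytokine and insulin receptor signalling, was at 785, 737, 598 and 569 CPM in young mice 14C, 18C, 23C and 29C and at 171, 293 and 481 CPM in old mice 2posI, 3posI and 4posI, all old mice being lower (-1.09 ± 0.32 SE, adjusted p = 0.133, edgeR). Ptpn1, a phosphatase of the insulin receptor, overlapped (0.30 ± 0.15 SE, adjusted p = 0.338). Igf2, the other ligand, was at 0.925 to 2.27 CPM in young and 0.566 to 1.33 CPM in old mice, and Insr, the insulin receptor, at 8.87 to 16.6 and 12.7 to 17.6 CPM. Igfbp6 (2.60 to 5.53 and 3.56 to 16.4 CPM, highest in 3posI, with a log2 fold change of 1.03 that was 0.20 without it) and Stc1 (0.151 to 1.12 and 0.108 to 0.626 CPM, highest in 23C) overlapped too. The insulin genes Ins1 and Ins2 and the binding protein Igfbp1 were under the filter on low counts.

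The genes most like each member were taken among 8146 genes with a mean of at least 10 CPM, by the root mean square difference of log2 CPM, centred on its mean, over the 7 libraries. For Igf1, whose own root mean square deviation was 1.08, they were Adcy3 (0.405), Gm1673 (0.474), Cd5l (0.486), Thbs2 (0.512) and Nrap (0.531). Cd5l, a secreted protein of macrophages, was at 414, 255, 1127 and 401 CPM in young mice 14C, 18C, 23C and 29C and at 185, 85.3 and 45.3 CPM in old mice 2posI, 3posI and 4posI, with the same high library as Igf1. Capg (0.164) and Plxnc1 (0.167) were closest to Igf2r (own deviation 0.633), and like it lay higher in all old mice than in any young mouse. Dennd1a (0.203) and Dennd4c (0.234) were closest to Irs2 (0.678), both highest in 3posI. Apod (0.317) and Col4a1 (0.391), a collagen of basement membranes, were closest to Igfbp7 (1.25), both highest in 23C. Map4 (0.0864) and Ubr1 (0.0890) were closest to Igf1r (0.213), and Tnrc6b (0.117) and Fam208a (0.156) to Igfbp4 (0.374). Of these 15 genes, 6 remained among the closest without 23C and 4 without 3posI. Apod and Col4a1 remained closest to Igfbp7 without either library (0.318 and 0.403 without 23C, 0.340 and 0.294 without 3posI). For Irs2, Dennd1a (0.219) and Dennd4c (0.252) ranked 11 and 40 without 3posI, where the deviation of Irs2 itself was 0.402. For Igf1, Cd5l ranked 8 without 23C (0.437) and 24 without 3posI (0.521), Gm1673 was the 1 gene of the 5 that remained without 23C, and 0 of the 5 remained without 3posI.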

How the data were processed

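Per the labels and the study's methods, low-input RNA of sorted Bodipy+ microglia was turned into Smart-seq2 cDNA and non-stranded libraries, and the authors used skewer for trimming, STAR for mapping to GRCm38, and RSEM with GENCODE m15 for quantification. For STAR and RSEM the version is not given in the sources used here. Labels name no molecular identifiers, so PCR copies of a molecule may count as separate reads. The authors deposited expected counts, which are not normalized, and TPM, scaled within each library. The authors' FPKM values, scaled likewise before they were deposited, were not used. The labels name separate animals, and no pairing or batch.

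Expected counts (36574083 to 53002386 per library) were rounded to whole numbers. A gene was kept where any library exceeded an expected count of 10 and it was not on X, Y or the mitochondrial genome (17559 genes). Annotation was GENCODE vM21 (50462 of 50686 identifiers). In R 4.3.3, edgeR 4.0.16 was run with TMM scaling and its quasi-likelihood test, age being the only term, checked on simulated counts. Alternatives were limma-voom (limma 3.58.1), DESeq2 1.42.0, RLE and upper-quartile factors, other filters, X, Y and mitochondrial genes kept, effective length as offset, limma on log2(TPM + 1), and each library left out. Leaving out 23C and 3posI together, the scaling to microglial markers, the patterns without either library, and the naming of Pik3cb, Ins1, Ins2 and Igfbp1 were chosen after seeing the data.

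The members, lists, ratios and tests were chosen with earlier results of these data known. Named genes are the 10 members, pathway genes called, the 2 with the smallest p in each pathway group, and the genes closest in pattern to members with a mean of at least 10 CPM (5 for Igf1 and 2 for each other). Some genes that this rule names are not reported here. Marker lists were those of microglia, infiltrating monocytes, fibroblasts, endothelial and mural cells, given in the report, and of others. Old and young sums overlapped for border-associated macrophages (101 to 1081 and 69.8 to 364 CPM), neutrophils (48.2 to 165 and 17.0 to 131 CPM), astrocytes (77.5 to 212 and 113 to 157 CPM), oligodendrocytes (128 to 168 and 122 to 142 CPM), neurons (0.869 to 3.73 and 2.27 to 3.10 CPM), ependymal and choroid plexus cells (107 to 228 and 93.7 to 252 CPM), T and NK cells (0.328 to 3.17 and 0.275 to 0.693 CPM) and B cells (80.9 to 291 and 50.2 to 205 CPM). Overlap of sums does not mean that single markers were alike. All 6 markers of border-associated macrophages and all 8 of neutrophils were higher in old mice. Of the 5 ependymal and choroid plexus markers 0 were higher. In these lists 0 markers were called, and the others held markers of both directions.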

Additional observations from a re-analysis of the deposited data

Results flagged for a closer look

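Within the 4 young mice, 10 of 57 values tested had 1 library far from the others. Each was above the critical value of Dixon's ratio of gap to range. About 2.85 would be expected for normally distributed, independent values. The values tested share the same 4 libraries, so the excess over 2.85 is not a measure against chance. Igf1 had a ratio of 0.928, with 23C at 368 CPM and the others at 168 to 183 CPM. The summed fibroblast markers had a ratio of 0.873 and Stc1 of 0.934, both from high values in 23C, and Sos2 of 0.915 from a low value there (7.83 CPM beside 8.83 to 8.93 CPM). In 18C, Ubr1 was high (0.849) and Ptpn1 low (0.939). In 14C, Dennd1a (0.865) and the summed monocyte markers (0.875; 481 CPM beside 181 to 219 CPM) were high. In 29C, the summed neutrophil markers were high (0.961; 131 CPM beside 17.0 to 21.4 CPM) and those of ependymal and choroid plexus cells low (0.848; 93.7 CPM beside 228 to 252 CPM). The old group, with 3 mice, was not tested.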

How the results depend on the processing

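The 141 genes called became 1399 with DESeq2, 281 without a filter on low counts, 64 on log2(TPM + 1) and 1 to 159 with 1 library left out, and 170 without both 23C and 3posI. The 0 members called became 1 with limma-voom, 2 with DESeq2 and 1 without a filter on low counts, and were 0 with any library left out. The 2 pathway genes called became 9 with DESeq2, 4 with filterByExpr, 4 without a filter, 0 on log2(TPM + 1) and 0 to 3 with 1 library left out. The cause was not tested. From CPM in place of TPM, Igf1 to Igf1r (-2.04), Igf1 to the binding proteins (-1.20), Igfbp4 to Igf1 (2.05) and Igf2r to Igf1r (0.952) kept their direction but not their call. With 1 library left out no ratio can pass, since 20 or 15 splits give a p of at least 0.1 or 0.0667. The log2 differences then ran from -2.59 to -1.96, from -1.35 to -0.553, from 1.59 to 2.37 and from 0.527 to 0.919 in the same order.

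Directions turned for Igf1r without a library (-0.079 to 0.288), Igfbp2 (-0.24 to 0.27, and 0.13 without both 23C and 3posI), Igfbp4 (-0.11 to 0.30, and -0.006352 without both), Stc1 (-0.95 to 0.88, and 0.93 without both) and Foxo1 (-0.054 to 0.273). On log2(TPM + 1), Insr (-0.042) and Ptpn1 (-0.059) turned. Without single libraries, Igf1 stayed at -2.38 to -1.58 and Igf2r at 0.82 to 1.26. No paired analysis was possible because the labels give animal codes and no numbers shared between ages. With 3 old mice and members such as Irs1, Igfbp3 and Stc1 at a few CPM or less, age differences of these genes were not resolved at this depth and number of animals.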
